A study of Homo sapiens with 12 samples.

Results

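The miR-181 family was followed through 12 NanoString libraries of 2 human acute myeloid leukaemia cell lines. Its members were taken by name: every probe naming miR-181a, miR-181b, miR-181c or miR-181d, with a joint probe counted once. This gave 7 of the 798 probes, which name 8 mature miRNAs. The family was selected on the measured log2 fold changes of miR-181a-5p (hsa-miR-181a-5p in the files), which had opposite signs in the lines, so its values below are a description and carry no test.

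A NanoString assay counts barcoded probes hybridised to RNA, without amplification. MOLM-14 and THP-1 are established monocytic leukaemia lines. Each was transduced with a lentivirus that carried either a short hairpin RNA (shRNA) specific for MUC1, which encodes a transmembrane mucin, or a scrambled control, and total RNA came from successfully transduced cells. The groups are called silenced MOLM-14, scrambled MOLM-14, silenced THP-1 and scrambled THP-1, with 3 samples each. All 4 groups therefore carried a lentiviral hairpin, and no group was left untransduced. The labels give neither the shRNA sequence nor whether the cells were pools or clones, and MUC1 itself was not measured here.

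A miRNA precursor folds into a hairpin that is cut into a 5p and a 3p arm, and usually one arm is kept as the guide that represses messenger RNAs. The guide finds its targets mainly through its seed, bases 2 to 8. In blood, miR-181a is known for promoting B-lineage development and for tuning T-cell receptor sensitivity in mice. In patients with cytogenetically normal acute myeloid leukaemia, higher miR-181 levels have been associated with better outcome.

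The family's 5p arms are printed to show how closely the probes' targets resemble each other, with the seed in capitals. RefSeq (GRCh38.p14) held a sequence for all 8 mature miRNAs.
miR-181a-5p: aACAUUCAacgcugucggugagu
miR-181c-5p: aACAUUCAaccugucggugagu
miR-181b-5p: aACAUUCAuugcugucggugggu
miR-181d-5p: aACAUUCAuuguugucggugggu
All 4 carry the seed ACAUUCA. With positions counted from 1 at the 5′ end of miR-181a-5p, miR-181b-5p differed from it by A9U, C10U and A21G, and miR-181d-5p differed from miR-181b-5p by C12U alone. miR-181c-5p matched miR-181a-5p at 22 bases and lacked 1. The only other mature miRNA in the RefSeq table with this seed, miR-4262, is not named by any of the 798 probes.

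The 3p arms with a probe are shown because they come from the same precursors and have other seeds.
miR-181a-3p: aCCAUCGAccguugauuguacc
miR-181a-2-3p: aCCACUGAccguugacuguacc
miR-181b-2-3p: cUCACUGAucaaugaaugca
miR-181d-3p: cCACCGGGggaugaaugucac
No 2 of these share a seed.

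The family is encoded at 3 places in the genome, each holding a pair of precursors. On chromosome 1, MIR181A1 (chr1:198859044-198859153, minus strand) lies 61 bases from MIR181B1, both within the bounds of the long non-coding RNA gene MIR181A1HG. On chromosome 9, MIR181A2 (chr9:124692442-124692551, plus strand) lies 1158 bases from MIR181B2, both within the bounds of MIR181A2HG. On chromosome 19, MIR181C (chr19:13874699-13874808, plus strand) lies 66 bases from MIR181D. These positions are RefSeq's on GRCh38.p14. The miR-181a-5p sequence is identical at chromosomes 1 and 9, so its probe cannot tell which precursor the molecules came from. The 3p probes can: miR-181a-3p belongs to chromosome 1, miR-181a-2-3p and miR-181b-2-3p to chromosome 9, and miR-181d-3p to chromosome 19.

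Some features of the libraries bear on every value. Totals ranged from 9002 to 20418 counts, and 630 probes, called background probes here, stayed above 1 and under 30 counts in all 12 samples, with library means of 10.1 to 15.1 counts. Silenced MOLM-14 samples 2 and 3 carry the source names MUC2 and MUC3 although their titles name MUC1. Sample 2 also stood apart from its group: across probes its Pearson r was 0.654 to sample 1 and 0.697 to sample 3, while samples 1 and 3 had an r of 0.961. For samples 2 and 3 of scrambled MOLM-14 the chi-square per degree of freedom was 1.08 across all probes (p = 0.0521) and 1.23 over tested probes (p = 0.0951), so a difference beyond sampling noise was not found. The pair entered every mean and SD as 1 sample, while the fitted models below keep all 12 samples separate unless stated. The silenced THP-1 samples were also close to sampling noise, with chi-square per degree of freedom between 0.944 and 1.06 for the 3 pairs over tested probes, and were kept apart. By the same reading they could have been counted as fewer samples, so the SDs given for this group with n = 3 may understate the spread. Whether the samples of a group were separate cultures is not stated, so SDs and p-values measure the spread between these samples only, which may be technical.

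miR-181a-5p was among the most abundant probes in MOLM-14 and far lower in THP-1. Counts in samples 1, 2 and 3 were 404, 494 and 407 in silenced MOLM-14 and 217, 313 and 379 in scrambled MOLM-14. They were 75, 86 and 75 in scrambled THP-1 and 22, 20 and 17 in silenced THP-1. The ranges of the 4 groups did not overlap, in the order silenced MOLM-14, scrambled MOLM-14, scrambled THP-1 and silenced THP-1. How many of the 798 probes have ranges this separate was not counted, so only the values are described. The MOLM-14 groups came closest to each other: the gap between the highest scrambled sample (379) and the lowest silenced one (404) was smaller than the SD of the scrambled group.

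**Figure D1:**
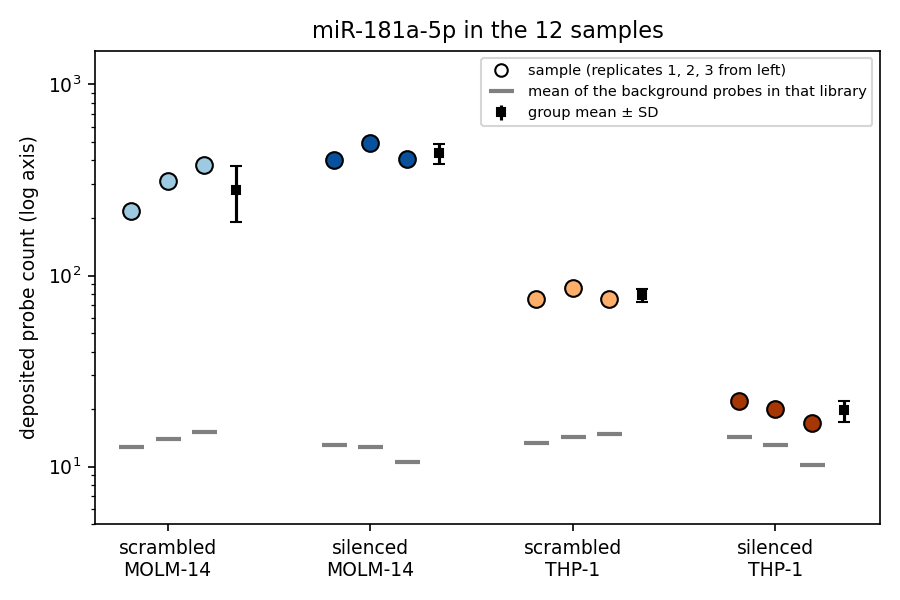
Deposited counts of miR-181a-5p (log axis) for each sample, with the mean of the 630 background probes of the same library as a grey dash and the group mean ± SD as a square (scrambled MOLM-14 samples 2 and 3 counted as 1). The 4 groups occupy separate ranges, and silenced THP-1, at 17 to 22 counts, sits just above the grey dashes.

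The mean count of silenced MOLM-14 was 435 ± 51.1 (SD, n = 3), against 281.5 ± 91.2 (n = 2) for scrambled MOLM-14, a ratio of 1.55. In THP-1 they were 19.7 ± 2.52 in silenced and 78.7 ± 6.35 in scrambled cells (n = 3 each), 4 times higher in the scrambled group. MUC1 silencing thus went with a higher count of this miRNA in one line and a lower count in the other. In bulk RNA, fewer expressing cells and less of the miRNA per cell cannot be told apart.

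The size of these differences depended on what each library was measured against, while their direction did not. As a share of all counts in its library, miR-181a-5p was 3.24 ± 0.41% (SD, n = 3) in silenced MOLM-14, against 1.86 ± 0.27% (n = 2) with the scrambled control, a ratio of 1.74. In THP-1 the share was 0.179 ± 0.00861% in silenced and 0.424 ± 0.0123% in scrambled cells (n = 3 each), a ratio of 2.37 in favour of scrambled. Library totals also differed, at 11048 ± 1853 in silenced and 18550 ± 1691 in scrambled THP-1 (SD, n = 3 each). Against the mean of the background probes in the same library, miR-181a-5p was 36.1 ± 4.43 times that mean in silenced and 20.4 ± 4.65 times in scrambled MOLM-14. It was 1.58 ± 0.0801 times in silenced and 5.58 ± 0.495 times in scrambled THP-1.

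Counting error is shown for the samples that came closest to each other. The lowest share in silenced MOLM-14, 2.86% in sample 2 (95% Wilson interval 2.62 to 3.12%), stood beside the highest in scrambled MOLM-14, 2.16% in sample 3 (1.96 to 2.39%). In THP-1 the highest silenced share was 0.189% in sample 3 (0.118 to 0.302%) and the lowest scrambled share 0.414% in sample 3 (0.331 to 0.519%). These intervals cover counting error only and treat the deposited values as raw counts.

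In silenced THP-1 little signal was left above background. The 3 samples exceeded the mean of their background probes by 7.73, 6.95 and 6.85 counts, and lay above 92.9%, 89.7% and 93.2% of those probes. In scrambled THP-1 the excess was 60.2 to 71.8 counts and in MOLM-14 it was 204 to 481 counts. The lower level in silenced THP-1 therefore lay within the range of background probes, and how much miR-181a-5p remained cannot be read from these counts.

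The rank of miR-181a-5p among the 798 probes, which needs no scaling, followed the same order. It ranked 2 or 3 in silenced MOLM-14, 3 or 4 in scrambled MOLM-14, 11 to 13 in scrambled THP-1 and 82 to 98 in silenced THP-1. Ranks set probes of different efficiency side by side, so only their movement between samples is read here.

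A second measure without scaling set miR-181a-5p against each of the other 66 tested probes in the same library. Tested probes are the 67 that reached 30 counts in 3 or more samples. In MOLM-14 its ratio to the other probe was higher in every silenced than in every scrambled sample for 42 of 66 probes, lower for 1 and overlapping for 23. Over all ordered pairs of tested probes, 15.8% were higher without overlap. In THP-1 the ratio was lower in every silenced sample for 49 of 66 probes, higher for 8 and overlapping for 9, and over all ordered pairs 31.2% were lower without overlap. These contrasts are the ones that singled out miR-181a-5p, so nothing is read from the shares.

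In an edgeR quasi-likelihood model of the 4 group means over the 67 tested probes, scaled by trimmed means of M-values (TMM), the fitted log2 fold change of miR-181a-5p with the MUC1 shRNA was 0.80 ± 0.16 (SE) in MOLM-14 and -1.23 ± 0.17 in THP-1. The difference between these effects, THP-1 minus MOLM-14, was -2.03 ± 0.23. Of the 7 members this was the only one tested, since the other 6 did not reach 30 counts in any sample. At an adjusted p under 0.05, 16.4%, 40.3% and 26.9% of the 67 probes were called in these comparisons. The calls include miR-181a-5p, but they are no test of a probe chosen on these same values. By direction, 5.97% of the 67 were called higher and 10.4% lower in MOLM-14, 16.4% higher and 23.9% lower in THP-1, and 5.97% higher and 20.9% lower for the difference. One of the 67 probes, miR-181a-5p, was called in both lines with opposite signs, which is the pattern it was chosen for. A further 13 had the same pair of signs without being called in both, so 14 of 67 were above 0 in MOLM-14 and below 0 in THP-1.

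**Figure D2:**
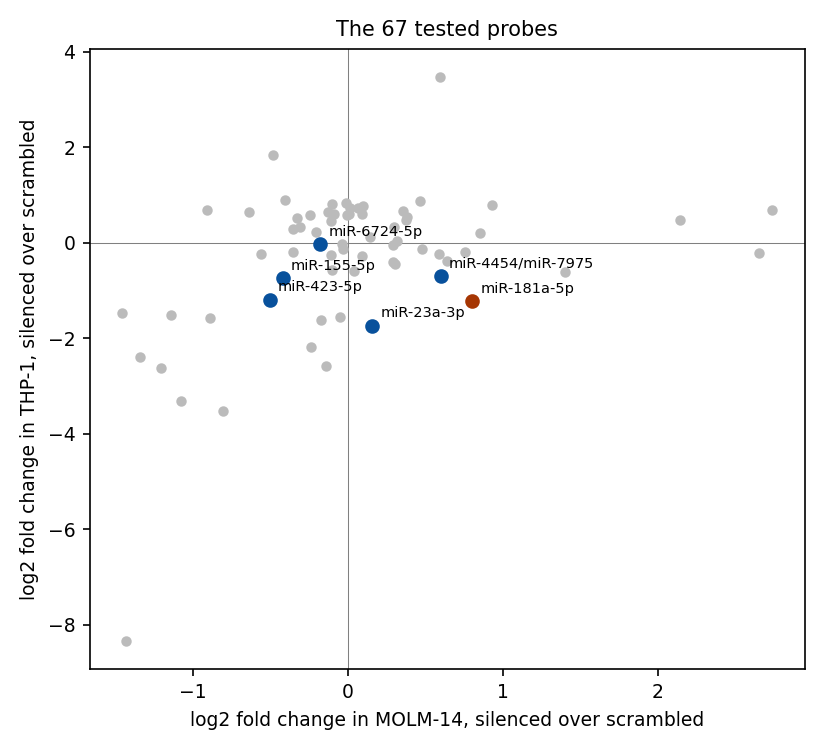
Fitted log2 fold change with the MUC1 shRNA in MOLM-14 (horizontal axis) and in THP-1 (vertical axis) for the 67 tested probes, each a grey point, with miR-181a-5p in brown and the 5 probes most like it in blue. miR-181a-5p lies at the lower right, at 0.80 and -1.23, with 13 other probes.

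The MOLM-14 value changed little with the processing, while the THP-1 value depended on the scaling. Across 26 other settings the MOLM-14 value lay between 0.73 and 0.95 and the THP-1 value between -1.91 and -0.94, with the sign kept in every setting. With scrambled MOLM-14 samples 2 and 3 averaged into 1, the MOLM-14 value was 0.80 ± 0.19 and 9 probes were called in that line in place of 11. Without silenced MOLM-14 sample 2, which stood apart, the MOLM-14 value was 0.84 ± 0.17, and without both samples whose source names read MUC2 and MUC3 it was 0.76 ± 0.20, in a fit that assumes that the lone silenced sample varies like the other groups. With the 3 silenced THP-1 samples averaged into 1, under the same assumption, the THP-1 value was -1.31 ± 0.24. With scaling on the background probes it was -1.81 ± 0.18, and with the background mean subtracted from each library -1.91 ± 0.22. Leaving out any 1 scrambled THP-1 sample gave -0.94, -0.96 and -1.01.

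**Figure D3:**
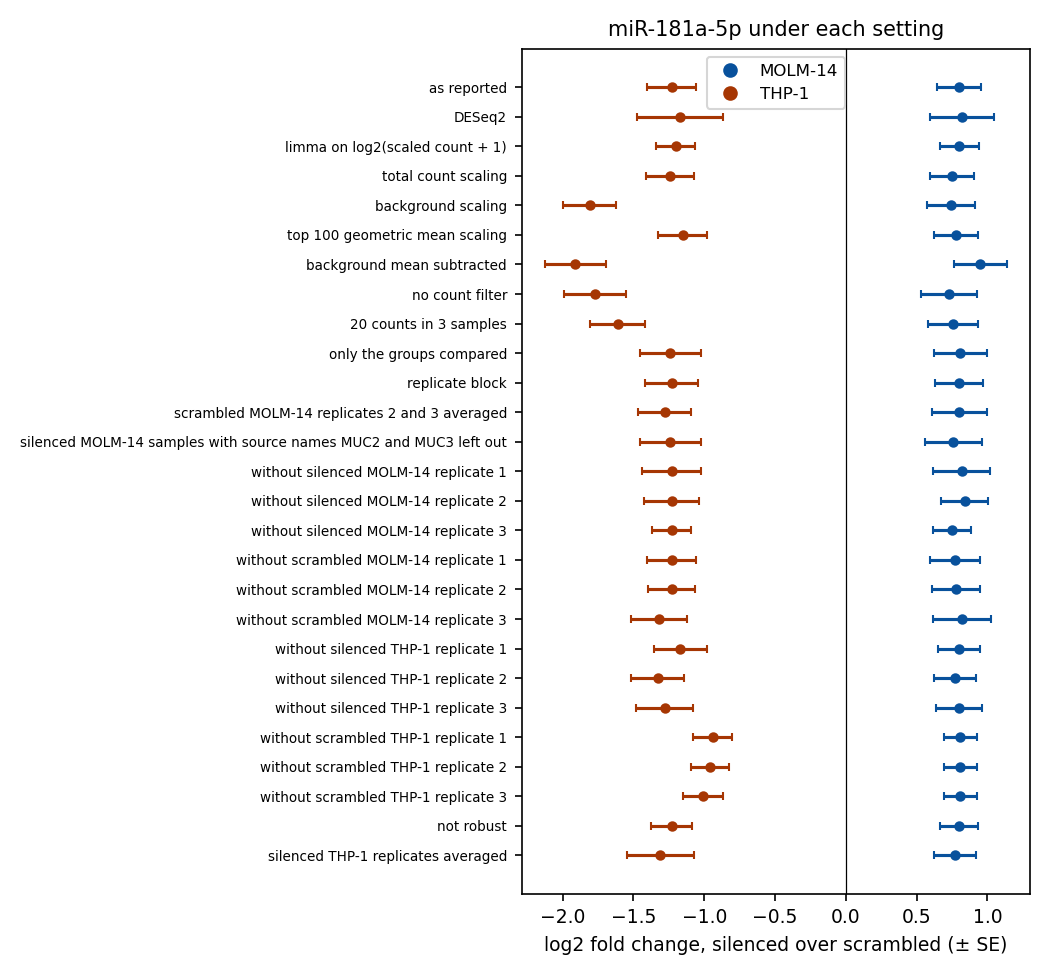
Fitted log2 fold change of miR-181a-5p with the MUC1 shRNA (horizontal axis, ± SE) under each setting (vertical axis), blue for MOLM-14 and brown for THP-1. The MOLM-14 points stay between 0.73 and 0.95, and the THP-1 points spread from -1.91 to -0.94.

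The lines already differed in this miRNA with the scrambled control. Scrambled MOLM-14 held 3.58 times the mean count of scrambled THP-1 (281.5 against 78.7), and the fitted log2 fold change of THP-1 over MOLM-14 was -2.07 ± 0.16 (SE). At that comparison 2.99% of the 67 probes were called, 2 in all, with 1.49% higher in THP-1 and 1.49% lower, the latter being miR-181a-5p. Without silenced MOLM-14 sample 1 or 2 the calls were 11 and 13, and without scrambled THP-1 sample 2 they were 5. With the MUC1 shRNA the ratio of mean counts between the lines was 22.1 (435 against 19.7). Silenced THP-1 lay within the range of background probes, so the size of this last ratio is uncertain. The groups are the same samples as in the comparisons within each line. The values are therefore set side by side and not tested again.

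The other 6 probes of the family stayed at or near the level of background in both lines. Their counts ran from 5 to 28 over all 72 values, and all 6 are among the 630 background probes, a set defined by its low counts. The joint probe for miR-181b-5p and miR-181d-5p, whose targets share the seed of miR-181a-5p, had 24, 14 and 17 counts in silenced MOLM-14 and 20, 20 and 28 in scrambled MOLM-14. In THP-1 it had 10, 11 and 15 counts in silenced and 14, 17 and 21 in scrambled cells. Its ranges overlapped between silenced and scrambled cells in each line. Against the background mean of its library the joint probe averaged 1.52 times in silenced and 1.61 times in scrambled MOLM-14. In THP-1 it averaged 1.01 times in silenced and 1.22 times in scrambled cells. The scrambled MOLM-14 samples lay above 86.6% to 99.2% of the background probes.

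miR-181c-5p, which lacks 1 base of miR-181a-5p, had 19, 9 and 12 counts in silenced and 8, 26 and 14 in scrambled MOLM-14. It had 18, 11 and 13 in silenced and 10, 20 and 22 in scrambled THP-1. In the MOLM-14 libraries, where miR-181a-5p had 217 to 494 counts, the miR-181c-5p probe therefore read 8 to 26, no higher than its 10 to 22 in THP-1 apart from 1 sample at 26.

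The 3p arms cut from the miR-181a precursors read at the level of background in all 4 groups. miR-181a-3p, from chromosome 1, had 13, 16 and 11 counts in silenced and 19, 14 and 18 in scrambled MOLM-14, and 24, 13 and 9 in silenced and 14, 22 and 25 in scrambled THP-1. miR-181a-2-3p, from chromosome 9, had 10, 5 and 11 in silenced and 9, 12 and 11 in scrambled MOLM-14, and 20, 10 and 10 in silenced and 10, 10 and 17 in scrambled THP-1. All ranges overlapped between silenced and scrambled cells of a line, and at these counts neither precursor could be followed through its 3p arm.

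miR-181b-2-3p, the 3p arm of the second chromosome 9 precursor, had 6, 15 and 15 counts in silenced and 17, 14 and 20 in scrambled MOLM-14. In THP-1 its counts were 19, 16 and 16 in silenced and 10, 12 and 11 in scrambled cells, with all 6 values inside the spread of the background probes. These ranges did not overlap, but how many of the 798 probes show such a gap was not counted, so nothing is read from it. miR-181d-3p, from chromosome 19, had 14, 8 and 7 in silenced and 19, 12 and 13 in scrambled MOLM-14, and 15, 22 and 15 in silenced and 15, 20 and 10 in scrambled THP-1.

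Summed over the 6 probes, each library held 0.876 to 1.28 times what 6 average background probes of that library would give. The ratio was 0.876 to 1.15 in silenced and 1.15 to 1.21 in scrambled MOLM-14, and 1.06 to 1.28 in silenced and 0.914 to 1.19 in scrambled THP-1. Of the 72 values, 6 (8.33%) exceeded the 95th percentile of the background probes in their library. In an edgeR fit of all 798 probes without the count filter, the log2 fold changes of the 6 with the MUC1 shRNA ran from -0.42 ± 0.36 (SE, miR-181d-3p) to -0.07 ± 0.36 (miR-181c-5p) in MOLM-14. In THP-1 they ran from -0.29 ± 0.33 (miR-181b-5p/miR-181d-5p) to 0.84 ± 0.33 (miR-181b-2-3p). Counts at background do not show that the miRNAs are absent.

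**Figure D4:**
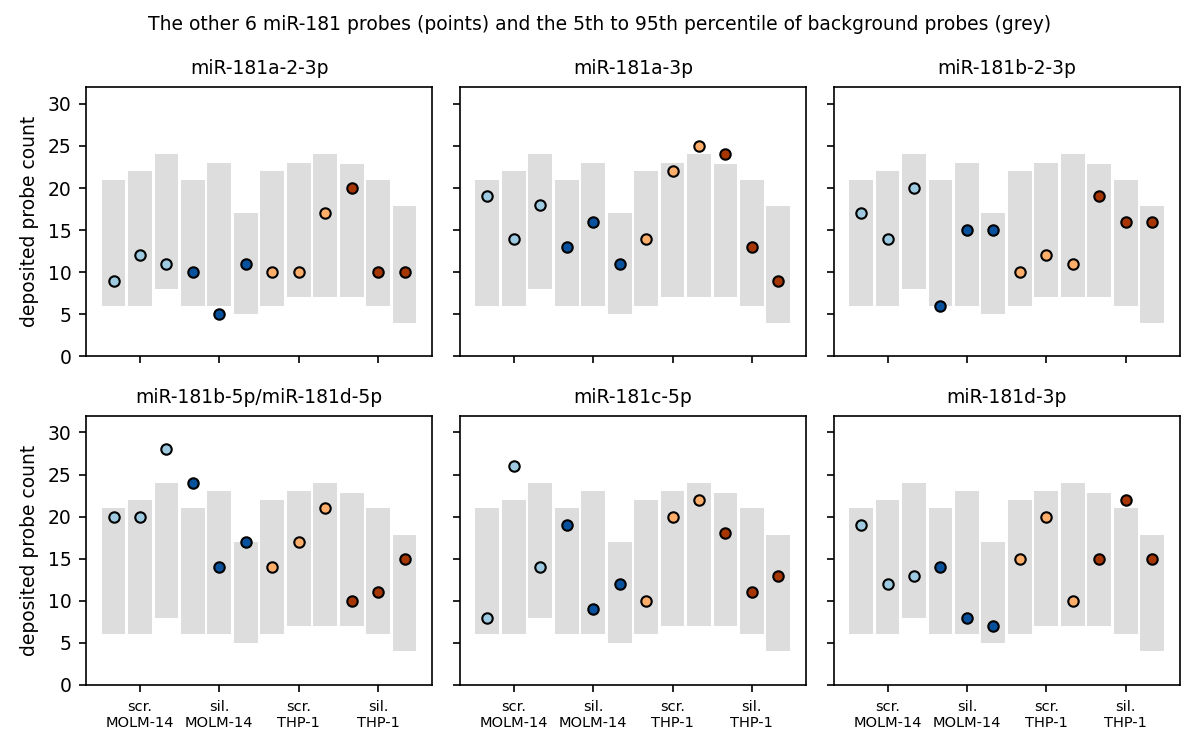
Deposited counts of the other 6 miR-181 probes (vertical axis) in the 12 samples, ordered as scrambled (scr.) and silenced (sil.) MOLM-14 and then THP-1, with the 5th to 95th percentile of the background probes of each library in grey. Of the 72 points, 6 lie above the grey bars, and none exceeds 28 counts.

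The tested probes most like miR-181a-5p were found by the root mean square difference of log2 scaled counts over the 12 samples, each probe centred on its own mean. The nearest was miR-23a-3p, of the miR-23a/27a/24-2 cluster, at 0.89, followed by the joint probe miR-4454/miR-7975 at 0.93. miR-155-5p (1.30), miR-423-5p (1.31) and miR-6724-5p (1.32) came next. miR-181a-5p itself had an SD of 1.67 over these samples, so the last 3 were only loosely alike. Since these probes were picked for a profile like that of miR-181a-5p over the same samples, their values are a description too. The 5 nearest probes were the same, in the same order, with scaling on the background probes.

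**Figure D5:**
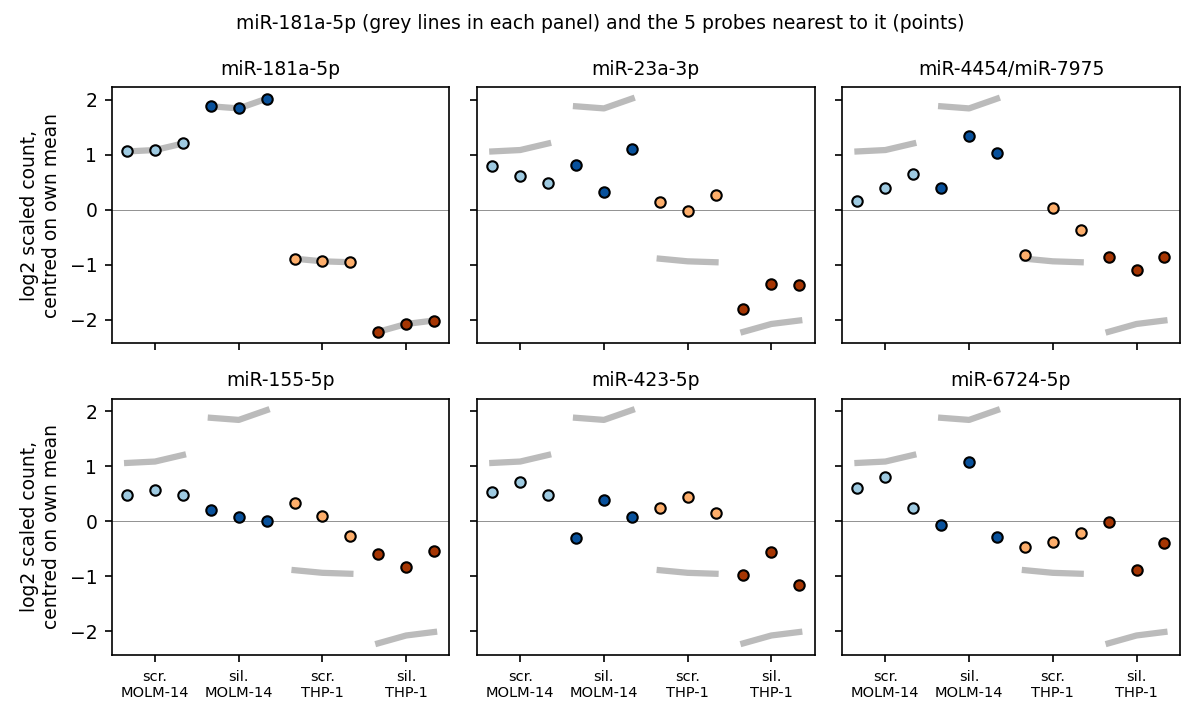
Log2 scaled counts centred on each probe's own mean (vertical axis) in the 12 samples, ordered as scrambled and silenced MOLM-14 and then THP-1, with miR-181a-5p repeated as grey lines. miR-23a-3p and miR-4454/miR-7975, at 0.89 and 0.93 from it, share its higher level in MOLM-14 and its lowest level in silenced THP-1.

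miR-23a-3p had 89, 79 and 100 counts in silenced and 83, 103 and 105 in scrambled MOLM-14, with overlapping ranges. In THP-1 it had 13, 15 and 12 counts in silenced and 71, 75 and 82 in scrambled cells. Its log2 fold change was 0.16 ± 0.22 (SE) in MOLM-14 and -1.74 ± 0.25 in THP-1, and the effects differed between the lines by -1.89 ± 0.34. Silenced THP-1 lay at background, so the size of the THP-1 value is uncertain. MIR23A lies 38039 bases from MIR181C on chromosome 19. The probes of the miR-181c/miR-181d precursors were at or near background, and a link between these loci was not tested. Of the 3 probes measured for this cluster, miR-27a-3p (5 to 17 counts) and miR-24-3p (6 to 19 counts) were not tested.

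For miR-4454/miR-7975 the counts were 24, 60 and 35 in silenced and 19, 32 and 43 in scrambled MOLM-14, and 9, 6 and 6 in silenced and 12, 28 and 18 in scrambled THP-1. Its log2 fold change was 0.60 ± 0.28 (SE) in MOLM-14 and -0.69 ± 0.36 in THP-1. The effects differed by -1.29 ± 0.46, with values from -2.26 to -0.66 under other settings, of which 18 of 24 lost the call. For miR-423-5p the log2 fold change in THP-1 was -1.19 ± 0.23.

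Other blood cell miRNAs were read from lists made for this comparison. Of 13 probes on the lymphoid list, to which miR-181a is related by its role, 4 were tested. In MOLM-14, where 5.97% of the 67 probes were called higher, 1 of the 4 was called higher, miR-150-5p, a repressor of MYB (2.74 ± 0.29). This probe passed the count filter only through silenced MOLM-14, the group in which it was high. Its values are therefore a description, and nothing is read from the 1 of 4. It went from 11, 12 and 18 counts in scrambled cells, the level of background, to 63, 85 and 80, so the size is uncertain. In THP-1, where 16.4% were called higher and 23.9% lower, none of the 4 was called higher and 2 were called lower. These were miR-92a-3p, from the oncogenic cluster of miR-17, (-1.55 ± 0.24, edgeR adjusted p = 1.75e-05) and miR-155-5p, known from activated lymphocytes and inflammation (-0.75 ± 0.22). The call for miR-155-5p was lost when scrambled THP-1 sample 1 (-0.33) or 2 (-0.47) was left out, and with the silenced THP-1 samples averaged (-0.85 ± 0.36). It is also 1 of the 5 probes picked for likeness, so its values are a description. The median log2 fold change of the 4 was -0.08 in MOLM-14 and -0.66 in THP-1, against -0.03 in each line over all 67 probes.

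Of 18 probes on the myeloid list, 5 were tested. In MOLM-14 miR-21-5p, widely raised in cancers, rose (0.64 ± 0.21, edgeR adjusted p = 0.0339), but 19 of 26 other settings lost the call, including 9 of the 12 that left out 1 library (0.47 to 0.70). One of 5 was called higher in MOLM-14 against 5.97% of the 67, and in THP-1 1 was called in each direction against 16.4% higher and 23.9% lower. In THP-1 miR-223-3p, a marker of the granulocytic and monocytic lineage, fell (-1.63 ± 0.30, edgeR adjusted p = 0.000133). The probe called higher was miR-196a-5p, whose genes sit among the HOX genes (3.47 ± 0.28). It passed the count filter only through silenced THP-1, the group in which it was high, so its values are a description. Silenced THP-1 lay at 11, 8 and 8 counts for miR-223-3p and scrambled THP-1 at 11, 22 and 9 for miR-196a-5p, both within background, so these sizes are uncertain. The median of the 5 was -0.17 in MOLM-14 and -0.19 in THP-1. With background scaling the median log2 fold change of all 67 probes in THP-1 moved from -0.03 to -0.61, and the called probes went from 11 higher and 16 lower to 2 higher and 31 lower. miR-196a-5p stayed higher (2.87 ± 0.33) under that scaling.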

How the data were processed

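The authors deposited one table of NanoString counts, covering 798 probes and 12 samples. The unit was inferred from the numbers: whole, never under 1, and with unequal sums per sample. The assay and transduction come from the labels' protocols. For counting software, background correction and lane scaling: not given in the sources used here. Earlier correction or rounding of the deposited values cannot be told from the table.

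Samples were grouped by their titles. The 67 probes reaching 30 counts in 3 or more samples were scaled by TMM and fitted with edgeR 4.0.16 (robust quasi-likelihood, R 4.3.3) as 4 group means, with Benjamini-Hochberg adjustment over the 67 and a threshold of 0.05. The fit was also run on simulated independent samples with changes planted in silenced THP-1 only, as many higher as lower. No result given here rests on that run. Means and SDs use unscaled counts. Replicate numbers were not taken as pairs: deviations of same-numbered samples correlated from -0.41 to 0.41.

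The members, lists and tests were chosen with earlier results of these data known. Named were all family probes, the 5 most like miR-181a-5p, and list members past the threshold. Alternatives used DESeq2 1.42.0, limma 3.58.1, other scalings and filters, and left out samples. Averaging the silenced THP-1 samples, a fit without robust estimation and rerunning the filter without each sample were added after seeing the data.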

Additional observations from a re-analysis of the deposited data

Results flagged for a closer look

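In the fit reported above, the effect of the MUC1 shRNA was called different between the lines for 8 of the miRNAs named here (given as the log2 effect in THP-1 less that in MOLM-14). Over all 67 tested probes 26.9% were called for this difference, 5.97% higher and 20.9% lower. The named miRNAs were family members, probes picked for likeness or list members past the threshold, so nothing is read from the count of 8. For miR-181a-5p (-2.03), and for miR-23a-3p (-1.89) and miR-4454/miR-7975 (-1.29), which were picked for their likeness to it over the same samples, the difference is a description. The call for miR-4454/miR-7975 was lost in 18 of 24 other settings. The differences of miR-150-5p (-2.04) and miR-196a-5p (2.88) are descriptions too, since each was tested only through the silenced group in which it was high. By the edgeR test of the difference itself, the effect was lower in THP-1 for miR-21-5p (-1.03), miR-223-3p (-1.46) and miR-92a-3p (-1.49). At least 1 group lay near background for each of these 8 except miR-21-5p. Its lowest group, silenced THP-1, had 31, 24 and 22 counts, above the 95th percentile of the background probes in each library. Without scrambled THP-1 sample 1 or 3 miR-223-3p lost the call (-1.13 and -1.11), as did miR-21-5p without scrambled THP-1 sample 1, 2 or 3 (-0.75, -0.77 and -0.81) or without the silenced MOLM-14 samples with source names MUC2 and MUC3 (-0.71). With the silenced THP-1 samples averaged, both lost it (-1.52 and -1.08).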

How the results depend on the processing

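miR-181a-5p kept its sign under every setting run: 26 each for MOLM-14, THP-1 and the scrambled lines, and 25 for the difference between the effects. Values that moved by more than the spread between replicates are listed as log2 fold changes, and where scaling moved them the cause of the shift was not tested. Background scaling gave -1.81 in THP-1, -2.56 for the difference and -1.95 for the scrambled lines. Background subtraction gave 0.95 in MOLM-14, -1.91 in THP-1, -2.86 and -2.34. Without the count filter the THP-1 value, the difference and the scrambled lines were -1.77, -2.50 and -1.95, and with 20 counts in 3 samples -1.61 and -2.37 for the first 2. Top 100 scaling gave -1.93 for the difference and -1.99 for the scrambled lines, and total count scaling -2.18 for the latter. Averaging the silenced THP-1 samples gave -1.31 in THP-1. Leaving out 1 library gave -1.33 to -0.94 in THP-1 and -2.14 to -1.75 for the difference; with the filter also rerun on the 11 samples (60 to 67 probes tested), -1.27 to -0.83 and -2.07 to -1.65. Calls among the 67 probes in the scrambled lines went from 2 to 6 with limma on log2 counts, 5 with total count scaling (1 higher and 4 lower), 5 with background scaling (80% higher against 50%), 16 with only the groups compared, 12 without the silenced MOLM-14 samples 2 and 3, 6 without robust estimation, and 2 to 13 without 1 library (11 and 13 without silenced MOLM-14 sample 1 or 2, and 5 without scrambled THP-1 sample 2). MOLM-14 calls ranged from 9 to 21 without 1 library, the highest without silenced sample 1. With silenced THP-1 averaged, the calls in THP-1 were 15 (against 27) and those of the difference 11 (against 18). Background scaling took the share of higher calls from 40.7% to 6.06% in THP-1 and from 22.2% to 8% for the difference. With the replicate number as a block the values of miR-181a-5p were 0.80, -1.23, -2.03 and -2.06, with 11, 26, 16 and 2 calls. With scrambled MOLM-14 samples 2 and 3 averaged the calls were 9, 25, 16 and 2. The other 6 members stayed at or near background, under 30 counts in every library, which limits what can be said of them.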
